A study of Rattus norvegicus with 22 samples.

Results

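Expression of 10 genes of cholesterol efflux and turnover was followed in the rat hippocampus after traumatic brain injury (TBI). The genes were listed by function, as genes of lipid export, the liver X receptors (LXR), storage and sterol hydroxylation, with earlier results of these data known, and all 10 were among the 17172 genes of the count table. They were Apoe, Abca1, Abcg1, Nr1h2, Nr1h3, Soat1, Npc1, Npc2, Cyp46a1 and Ch25h, and all 10 were among the 12875 genes that passed the filter on low counts. RNA-seq had been performed on bulk ipsilateral hippocampus of 14 adult male Sprague-Dawley rats, each a separate sample. TBI rats received a lateral fluid percussion, a brief pressure pulse of saline onto the exposed dura, and sham rats had the same craniectomy and the same time under anesthesia without the pulse. The groups were sham day 1 (n = 2), TBI day 1 (n = 4), sham day 14 (n = 4) and TBI day 14 (n = 4), and no genetic change is stated for any group. Every sham rat thus carried a skull opening, and only males were studied.

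Brain cholesterol is made inside the brain, largely by glia, and moves between cells on lipoprotein particles built around apolipoprotein E and loaded by ATP-binding cassette transporters. Cholesterol that a cell takes up is released from the lysosome by the Niemann-Pick proteins, and a surplus is esterified for storage, exported, or hydroxylated to oxysterols. Oxysterols bind the LXR nuclear receptors, which switch on export genes, and the neuronal hydroxylase Cyp46a1 makes the form in which most cholesterol leaves the brain.

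The 5 members that passed the test in at least 1 comparison of TBI with sham of the same day were Abca1, Nr1h3, Npc2, Cyp46a1 and Ch25h, and the 250 bases before the annotated start of each are shown to set their control regions side by side. The sequences are those of RefSeq on build GRCr8, at chr5:72596474-72596723 (minus strand) for Abca1, chr3:97623230-97623479 (minus strand) for Nr1h3, chr6:110149246-110149495 (minus strand) for Npc2, chr6:133011740-133011989 (plus strand) for Cyp46a1 and chr1:241429367-241429616 (minus strand) for Ch25h. All lie upstream of the transcribed gene. Each is written 5′ to 3′ on the strand of the gene. Capitals mark the GC box (GGGCGG, either strand), the cyclic AMP response element (TGACGTCA) and the TATA motif (TATAAA, either strand). In Abca1 they also mark the best match to the direct repeat that LXR binds (AGGTCA, 4 bases of any kind, AGGTCA, either strand).
Abca1: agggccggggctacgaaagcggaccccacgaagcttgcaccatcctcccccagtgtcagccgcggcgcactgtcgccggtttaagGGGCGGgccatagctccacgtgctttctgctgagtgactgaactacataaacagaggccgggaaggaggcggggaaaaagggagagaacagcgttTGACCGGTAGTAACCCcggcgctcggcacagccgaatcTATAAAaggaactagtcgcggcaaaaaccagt
Nr1h3: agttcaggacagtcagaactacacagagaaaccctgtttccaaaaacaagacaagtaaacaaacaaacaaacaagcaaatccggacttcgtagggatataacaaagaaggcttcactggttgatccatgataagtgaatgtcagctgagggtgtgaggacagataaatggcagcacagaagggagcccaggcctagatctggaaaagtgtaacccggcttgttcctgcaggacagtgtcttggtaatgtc
Npc2: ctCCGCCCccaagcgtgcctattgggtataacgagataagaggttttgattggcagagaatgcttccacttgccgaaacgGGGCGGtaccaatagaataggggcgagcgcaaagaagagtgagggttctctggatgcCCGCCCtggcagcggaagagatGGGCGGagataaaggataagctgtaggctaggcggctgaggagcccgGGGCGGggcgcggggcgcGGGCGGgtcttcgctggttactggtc
Cyp46a1: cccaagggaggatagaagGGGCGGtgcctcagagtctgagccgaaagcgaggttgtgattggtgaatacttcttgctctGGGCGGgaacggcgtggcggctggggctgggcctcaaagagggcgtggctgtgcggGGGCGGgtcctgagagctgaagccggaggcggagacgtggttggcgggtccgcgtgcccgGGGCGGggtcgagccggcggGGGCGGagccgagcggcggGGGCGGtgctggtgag
Ch25h: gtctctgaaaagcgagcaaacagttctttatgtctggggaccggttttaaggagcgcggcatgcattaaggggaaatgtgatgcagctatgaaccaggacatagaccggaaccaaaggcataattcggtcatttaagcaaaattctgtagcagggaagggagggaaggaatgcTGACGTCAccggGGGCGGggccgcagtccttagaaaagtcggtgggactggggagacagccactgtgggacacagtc
None of the capital stretches overlap one another. The Npc2 and Cyp46a1 windows each held 6 GC boxes, with 60.8% and 71.2% G and C against a median of 51.2% over 33469 rat promoter windows. At least 1 GC box was found in 30.5% of all windows, and the share with 6 was not taken. Ch25h held the cyclic AMP response element, 77 bases before the start, which 1.59% of windows held, with a GC box 65 bases before the start. Abca1 held a GC box, a TATA motif (12.9% of windows) and a stretch 70 bases before the start with 3 mismatches to the 12 fixed letters of the LXR repeat, and 18.6% of all windows matched at least as well. Nr1h3 held no GC box, cyclic AMP response element or TATA motif, with 45.2% G and C. In Nr1h3, Npc2, Cyp46a1 and Ch25h the best match to the LXR repeat had 4 mismatches and was not marked. Of all windows 71.4% matched at least that well. These matches describe letters and not binding. A window was found for 9 of the 10 members, all but Abcg1. The Npc1 window, not shown, also held a match to the LXR repeat with 3 mismatches, 187 bases before the start.

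Total counts were 15065540 to 23743703 per sample, and replicates of a group differed by more than counting error (chi-squared per degree of freedom between 13.3 and 171). Levels are given below as CPM, counts scaled to a common library size with TMM factors, which do not correct for gene length, so levels are compared only between samples of 1 gene. Markers of choroid plexus, the tissue next to the hippocampus that secretes cerebrospinal fluid, summed to 9180 CPM in sham day 1 replicate 1 and to 1610 and 7820 CPM in TBI day 14 replicates 2 and 3, against 27.9 to 54.7 CPM in the other samples. These 3 samples were therefore also left out as a check chosen after the data were seen. With sham day 1 replicate 1 left out, that group has 1 sample, which is then assumed to vary like the other groups. Markers of hippocampal excitatory neurons were present in every sample.

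At day 1, 2 of the 10 members were higher in TBI than in sham (Nr1h3 and Ch25h) and 1 was lower (Cyp46a1) by edgeR with an adjusted p under 0.05, where 19.1% of all tested genes passed, 11.2% higher and 7.93% lower. At day 14, 3 members were higher (Abca1, Npc2 and Ch25h) and 0 were lower, where 4.43% of all tested genes passed, 4.07% higher and 0.365% lower. At an unadjusted edgeR p under 0.05, 2 members were higher and 2 lower at day 1 (2236 and 2193 of the 12875 tested genes) and 6 higher and 0 lower at day 14 (1162 and 551 genes). At day 14 limma-voom called 3 members higher and 0 lower (439 and 40 genes), and DESeq2 4 and 0 (672 and 112 genes). The median log2 fold change of the 10 members was 0.09 at day 1 (all tested genes, −0.02) and 0.48 at day 14 (all tested genes, −0.03). All 4 TBI samples lay above all sham samples in 6 members at day 14, Apoe, Abca1, Abcg1, Nr1h3, Npc2 and Ch25h, where 9.13% of all tested genes did so, and below in 0 members (5.86%). At day 1 they lay above in Nr1h3 and Ch25h (16.7% of all tested genes) and below in Abcg1 and Cyp46a1 (14.1%). Ch25h was the member past the threshold on both days.

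**Figure D1:**
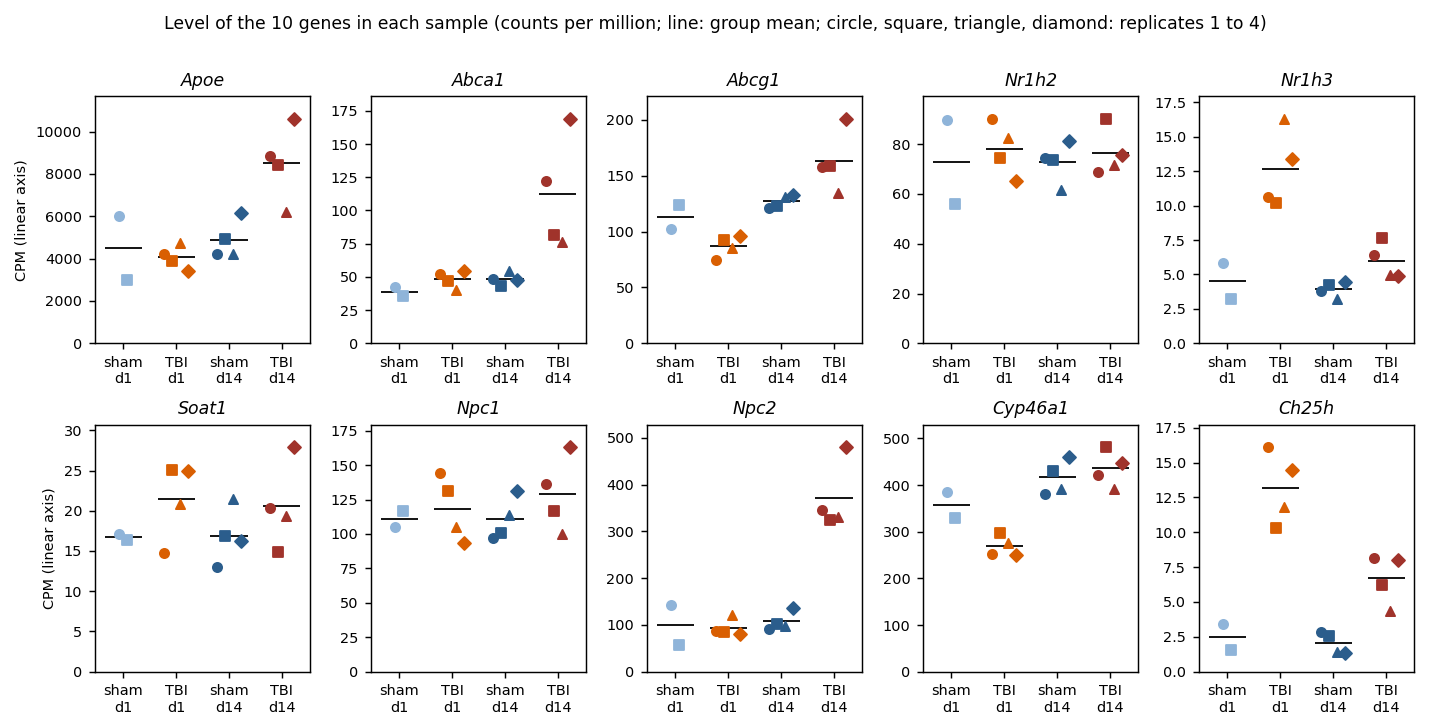
Level of each member in each sample, in CPM on a linear axis from 0, by group on the horizontal axis, where each point is 1 sample, the marker shape is the replicate number and the line is the group mean. The TBI day 14 points of Npc2 (325 to 480 CPM) and Abca1 (76.3 to 169 CPM) lie above every other sample, while for Nr1h3 and Ch25h the TBI day 1 points are the highest.

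**Figure D2:**
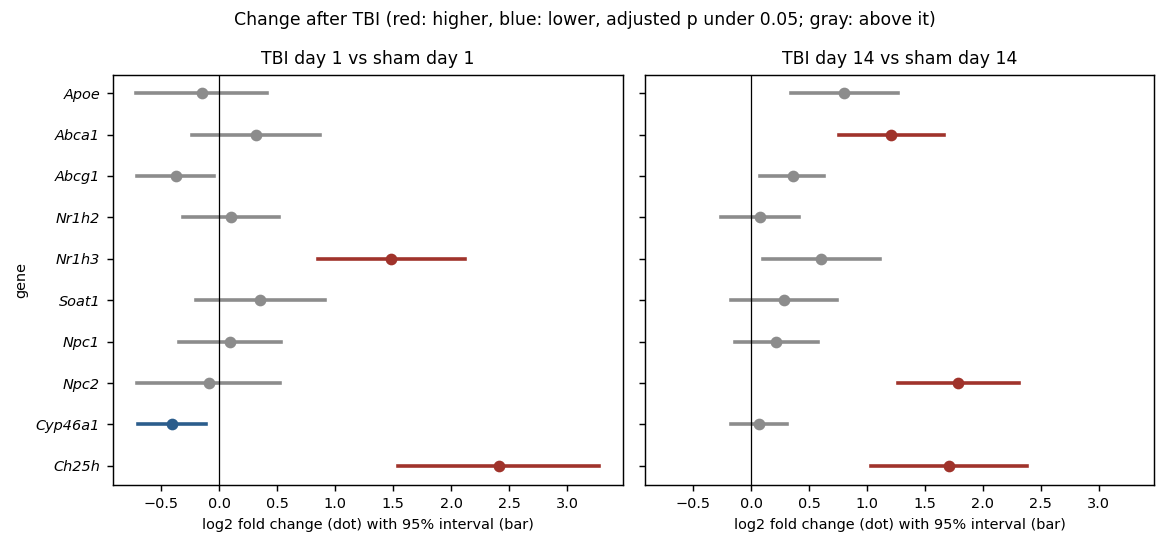
Log2 fold change of each member in TBI against sham of the same day (dot) with its 95% confidence interval (bar), in red or blue where the adjusted p was under 0.05. At day 1 Nr1h3 (1.48) and Ch25h (2.41) lie to the right and Cyp46a1 (−0.41) to the left of 0, and at day 14 all 10 dots lie to the right.

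The LXR receptors read the oxysterol level of the cell. Nr1h3, which encodes LXR alpha, the receptor form common in macrophages, was at 5.82 and 3.23 CPM in sham day 1 and at 10.6, 10.2, 16.3 and 13.4 CPM in TBI day 1. It was at 3.80, 4.21, 3.19 and 4.46 CPM in sham day 14 and at 6.43, 7.62, 4.97 and 4.86 CPM in TBI day 14. The TBI samples lay above the sham samples of their day at both times, widely at day 1 and narrowly at day 14. At day 1 Nr1h3 rose 2.80-fold (log2 fold change 1.48, SE 0.30, edgeR adjusted p = 0.00335). At day 14 the log2 fold change was 0.61 (SE 0.23, edgeR adjusted p = 0.234), and the difference between the days was 0.88 (SE 0.37, edgeR adjusted p = 0.206). The day 1 change of Nr1h3 rested in part on sham day 1 replicate 2, without which it was 1.12 with an edgeR adjusted p of 0.0677. Nr1h2, which encodes LXR beta, the form found in most cells, was at 55.8 to 90.2 CPM over all samples with overlapping groups. Its log2 fold change was 0.10 at day 1 (95% interval −0.31 to 0.51) and 0.07 at day 14 (95% interval −0.26 to 0.41).

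Of the export genes, Abca1 encodes the transporter that hands cholesterol and phospholipid to lipid-poor apolipoproteins, the first step of particle formation. It was at 42.3 and 35.5 CPM in sham day 1 and at 52.2, 46.8, 40.1 and 54.5 CPM in TBI day 1. At day 14 it was at 48.6, 43.3, 54.8 and 47.8 CPM in sham and at 122, 81.8, 76.3 and 169 CPM in TBI. The groups overlapped at day 1 and were apart at day 14, where TBI replicate 4 was highest and replicate 3 lowest. Abca1 rose 2.31-fold at day 14 (log2 fold change 1.21, SE 0.21, edgeR adjusted p = 0.0025), against 0.32 (SE 0.26, edgeR adjusted p = 0.418) at day 1. Without the 3 samples rich in choroid plexus markers the day 14 value was 1.60 (edgeR adjusted p = 0.000113). The difference of the TBI effect between the days was −0.89 (SE 0.33, edgeR adjusted p = 0.148), so the larger change at day 14 was not shown to differ from that at day 1.

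Abcg1, which encodes the transporter that loads cholesterol onto particles already formed, was at 102 and 124 CPM in sham day 1 and at 74.4, 92.5, 85.1 and 95.8 CPM in TBI day 1. In sham day 14 it was at 121, 123, 131 and 133 CPM, and in TBI day 14 at 158, 159, 135 and 201 CPM. TBI samples were thus all below sham at day 1 and all above sham at day 14. Neither change passed the threshold, at −0.38 (SE 0.16, edgeR adjusted p = 0.1) at day 1 and 0.36 (SE 0.13, edgeR adjusted p = 0.181) at day 14. The difference between the days was −0.74 (SE 0.20), with an edgeR adjusted p of 0.0576. That difference of Abcg1 was past the threshold in 7 of 24 alternatives, among them DESeq2 (adjusted p = 0.0156) and the omission of the samples rich in choroid plexus markers (−1.05, edgeR adjusted p = 0.0421), and also without sham day 1 replicate 1, TBI day 1 replicate 4 or TBI day 14 replicate 3 alone (edgeR adjusted p = 0.0454, 0.0442 and 0.04).

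Apoe, the main lipid carrier made by astrocytes and by activated microglia, was at 6030 and 3000 CPM in sham day 1 and at 4230, 3880, 4730 and 3400 CPM in TBI day 1. It was at 4220, 4940, 4230 and 6130 CPM in sham day 14 and at 8860, 8420, 6200 and 10600 CPM in TBI day 14. All 4 TBI day 14 samples were above sham day 14, although replicate 3 was above sham replicate 4 by little. The log2 fold change at day 14 was 0.81 (SE 0.22), at an edgeR adjusted p of 0.0513. Apoe passed the threshold in 6 of 19 alternatives at that day, with DESeq2 (adjusted p = 0.00632) and without the samples rich in choroid plexus markers (1.02, edgeR adjusted p = 0.00859) among them, and also without sham replicate 4 (edgeR adjusted p = 0.0447) or TBI replicate 3 (edgeR adjusted p = 0.0192) alone. At day 1 the 2 sham samples of Apoe enclosed all 4 TBI samples, so the log2 fold change of −0.15 (SE 0.27, edgeR adjusted p = 0.719) became 0.44 without sham replicate 1 and −0.57 without sham replicate 2.

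Of the lysosomal pair, Npc2 encodes the soluble protein that picks up cholesterol inside the lysosome and Npc1 the membrane protein that carries it out. Npc2 was at 142 and 57.8 CPM in sham day 1 and at 86.7, 85.3, 122 and 80.6 CPM in TBI day 1. It was at 91.9, 103, 98.6 and 136 CPM in sham day 14 and at 346, 325, 331 and 480 CPM in TBI day 14. The lowest TBI day 14 sample was above every sample of the other 3 groups. Npc2 rose 3.45-fold at day 14 (log2 fold change 1.79, SE 0.24, edgeR adjusted p = 0.000314), and the rise was 1.97 (edgeR adjusted p = 0.000114) without the samples rich in choroid plexus markers. At day 1 the log2 fold change was −0.09 (SE 0.29, edgeR adjusted p = 0.847), again with both sham samples on either side of the TBI samples.

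Npc2 was the 1 member whose TBI effect differed between the days (log2 difference, day 1 minus day 14, −1.88, SE 0.37, edgeR adjusted p = 0.0122), where 3.68% of all tested genes passed that test, 1.44% lower and 2.24% higher. At an unadjusted edgeR p under 0.05 the difference was higher in 1 member and lower in 5, against 1344 and 1133 of the 12875 tested genes. The size of the Npc2 difference depended on sham day 1 replicate 1, without which it was −1.10 (edgeR adjusted p = 0.06). With a choroid plexus marker score as a covariate the Npc2 difference was −1.55 (edgeR adjusted p = 0.102), and without the 3 samples rich in choroid plexus markers it was −1.29 (edgeR adjusted p = 0.0778). Npc1 was at 105 and 117 CPM in sham day 1 and at 144, 131, 105 and 93.4 CPM in TBI day 1. It was at 97.3, 101, 114 and 131 CPM in sham day 14 and at 136, 117, 100 and 163 CPM in TBI day 14, with the groups overlapping on both days. The log2 fold changes of Npc1 were 0.09 (95% interval −0.35 to 0.53) and 0.22 (95% interval −0.14 to 0.58).

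Soat1 encodes the enzyme that esterifies cholesterol for lipid droplets. It was at 17.1 and 16.4 CPM in sham day 1 and at 14.7, 25.1, 20.9 and 24.9 CPM in TBI day 1. It was at 13.0, 16.9, 21.4 and 16.3 CPM in sham day 14 and at 20.4, 14.9, 19.3 and 27.9 CPM in TBI day 14. The groups overlapped on both days, and the log2 fold changes were 0.35 (SE 0.26, edgeR adjusted p = 0.362) and 0.29 (SE 0.21, edgeR adjusted p = 0.696).

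The hydroxylases moved in opposite directions at day 1. Ch25h, an enzyme of activated macrophages and microglia that makes an oxysterol ligand, was at 3.39 and 1.57 CPM in sham day 1 and at 16.1, 10.3, 11.8 and 14.5 CPM in TBI day 1. It was at 2.88, 2.58, 1.41 and 1.36 CPM in sham day 14 and at 8.16, 6.21, 4.37 and 8.02 CPM in TBI day 14. No TBI sample overlapped a sham sample, and TBI day 1 lay above TBI day 14. Ch25h rose 5.33-fold at day 1 (log2 fold change 2.41, SE 0.41, edgeR adjusted p = 0.00102) and 3.26-fold at day 14 (1.71, SE 0.31, edgeR adjusted p = 0.00382). These rest on low counts, 34 to 63 per sample in sham day 1 and 25 to 44 in sham day 14. Ch25h kept its call in all 17 alternatives at day 1 (log2 fold change 1.95 to 3.06) and in all 19 at day 14 (1.55 to 2.01). The difference between the days, 0.71 (95% interval −0.34 to 1.76), did not pass the threshold (edgeR adjusted p = 0.457).

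Cyp46a1, the neuronal enzyme of cholesterol removal, was at 386 and 330 CPM in sham day 1 and at 253, 298, 276 and 250 CPM in TBI day 1. It was at 381, 431, 392 and 461 CPM in sham day 14 and at 422, 481, 392 and 447 CPM in TBI day 14. TBI day 1 was below every other sample, while both day 14 groups overlapped. Cyp46a1 was 1.33-fold lower at day 1 (log2 fold change −0.41, SE 0.14, edgeR adjusted p = 0.0458), just inside the threshold, and at day 14 the log2 fold change was 0.07 (95% interval −0.17 to 0.31). The day 1 call of Cyp46a1 was lost in 13 of 17 alternatives, with log2 fold changes from −0.52 to −0.25, and by the omission of any 1 sample of these groups other than TBI day 1 replicate 2. Without sham day 1 replicate 1 the value was −0.30 (edgeR adjusted p = 0.216), and without replicate 2 it was −0.52 (edgeR adjusted p = 0.0782).

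**Figure D3:**
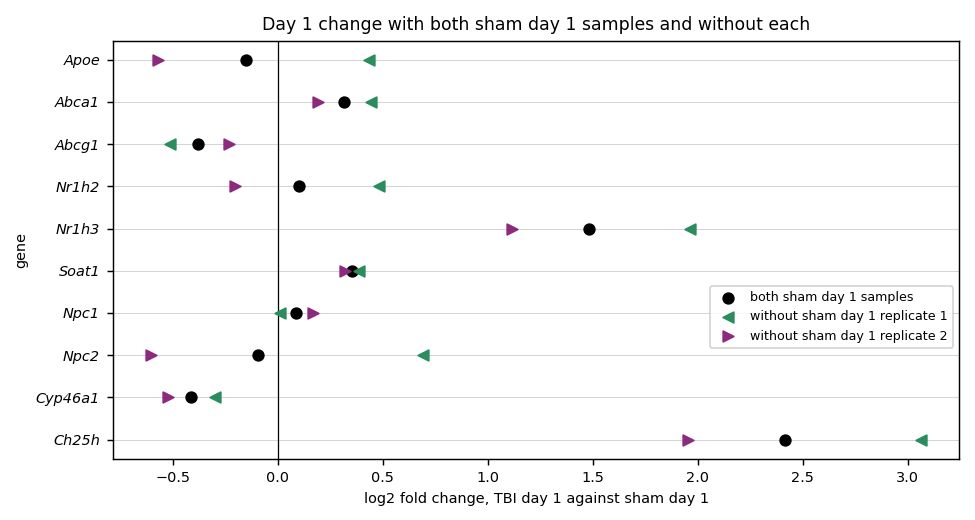
Log2 fold change of each member in TBI day 1 against sham day 1 (horizontal axis) with both sham samples and without each of them. The direction differs between the omissions for Apoe (0.44 and −0.57), Npc2 (0.69 and −0.60) and Nr1h2 (0.48 and −0.20), while Nr1h3 and Ch25h stay to the right and Abcg1 and Cyp46a1 to the left of 0.

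Since sham day 1 held 2 samples, TBI day 1 was also set against sham day 14, the baseline the study used for its trajectories, although day after surgery then differs along with injury. Ch25h (log2 fold change 2.68, SE 0.32, edgeR adjusted p = 1.23e-05) and Nr1h3 (1.69, SE 0.23, edgeR adjusted p = 5.08e-05) were higher. Cyp46a1 (−0.63, SE 0.11, edgeR adjusted p = 0.000424) and Abcg1 (−0.55, SE 0.13, edgeR adjusted p = 0.00315) were lower. The 4 calls of Ch25h, Nr1h3, Cyp46a1 and Abcg1 were kept in all 19 alternatives. Of all tested genes 46% passed in that comparison, 25% higher and 21% lower, so 2 members in each direction is near the share of all genes. Both comparisons share the TBI day 1 samples and are not independent. Between the sham groups themselves 0 of the 10 members were higher or lower by edgeR, limma-voom or DESeq2, and 0 had an unadjusted edgeR p under 0.05, where 19.1% of all tested genes passed by edgeR, 11.3% higher and 7.88% lower in sham day 1. The sham samples did not overlap in 1 member, Abca1, lower in sham day 1 (20.1% of all tested genes were apart in that direction and 21.3% in the other).

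Cell type markers moved with several of these results. The 10 microglia and macrophage markers, none at 0 in any sample, summed at day 1 to between 334 and 520 CPM in sham and between 710 and 839 CPM in TBI. At day 14 the sum was 381 to 507 CPM for sham and 913 to 1630 CPM for TBI. Of the 10, 9 were higher at day 14, and at day 1, 5 were higher and 2 lower. Over TBI day 14 replicates 1 to 4 the sum was 1210, 979, 913 and 1630 CPM. Replicate 4 was highest in these markers and in 6 of the 10 members, Abca1, Npc2, Apoe, Abcg1, Soat1 and Npc1. Within its group it was also highest in the sums of the monocyte and neutrophil (155 CPM), astrocyte (13700 CPM) and oligodendrocyte markers (19000 CPM). It was not highest in the sums of the excitatory neuron (7550 CPM), interneuron (504 CPM) or endothelial cell and pericyte markers (395 CPM). Of the monocyte and neutrophil markers 6 of 7 were higher at day 1, as were Nr1h3 and Ch25h. The sums of these markers were 26.7 to 47.1 CPM for sham and 237 to 450 CPM for TBI of that day. At day 14, where Ch25h was also higher, 1 of the 7 was higher. The day 14 sums were 25.1 to 30.4 CPM for sham and 45.5 to 155 CPM for TBI. Of the excitatory neuron markers 5 of 11 were lower at day 1, as was Cyp46a1. Their sums were 8900 to 10700 CPM for sham and 3100 to 6950 CPM for TBI. At day 14 0 of the 11 were called, with sums of 7600 to 9560 and 6450 to 8010 CPM. Of the oligodendrocyte markers 3 of 7 were lower at day 1 and 0 of 7 at day 14. Their day 1 sums overlapped, at 10700 to 14700 CPM for sham and 4140 to 15600 CPM for TBI. Interneuron markers, of which 3 of 6 were lower at day 1 and 0 of 6 at day 14, had sums of 527 to 738 CPM for sham and 302 to 456 CPM for TBI at day 1, and of 570 to 701 and 491 to 514 CPM at day 14. Astrocyte markers, of which 1 of 8 (Gfap, chosen here after its value was seen) was higher on each day, had sums of 6670 to 10700 CPM for sham and 13700 to 20100 CPM for TBI at day 1. At day 14 the astrocyte sums were 5810 to 7140 and 9440 to 13700 CPM. Most of these markers did not share the higher day 1 sums, since 3 of the 8 pointed higher (median log2 value −0.31). For day 14 it was 5 of the 8 (median 0.18). At day 1 the log2 fold change of Apoe was −0.15, beside a median of −0.31 for the astrocyte markers and 3.10 for Gfap. At day 14 Apoe was at 0.81, beside a median of 0.18 for these markers and 2.06 for Gfap. Of the endothelial cell and pericyte markers 1 of 8 was higher at day 1 and 0 of 8 were called at day 14. Their sums overlapped, at 245 to 455 CPM for sham and 362 to 566 CPM for TBI at day 1. At day 14 these sums were 325 to 472 and 281 to 424 CPM. In bulk tissue a change in the number of cells of a type and a change in RNA per cell cannot be told apart. The part of these cell types in the results was not tested.

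Of 58 other genes of the pathway, in 5 lists, 53 were in the table and 51 were tested. At day 1, 6 of the 51 were higher and 3 lower, and at day 14, 2 were higher and 1 was lower, by edgeR, near the shares of all tested genes (19.1% and 4.43% in either direction). DESeq2 called 6 higher and 7 lower at day 1, against 1702 and 1427 of 13267 genes. At day 14 DESeq2 called 5 higher and 2 lower, against 672 and 112 of 12978 genes. The day 14 share by DESeq2 was thus larger in these lists than over all genes. The lipid export list (15 tested) had 1 lower at day 1 and 0 called at day 14, and the list of LXR partners, corepressors and targets (10 tested) had 0 and 1 lower. The ester storage list (5 tested) had 1 higher on each day, the organelle transport list (15 tested) had 3 higher and 2 lower at day 1 and 0 at day 14, and the oxysterol list (6 tested) had 2 higher at day 1 and 1 at day 14. Median log2 fold changes of these lists, in that order, were −0.33, 0.09, 0.84, 0.01 and −0.11 at day 1. They were −0.09, 0.06, −0.14, −0.08 and 0.06 at day 14.

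Gpr183, the receptor by which immune cells follow oxysterols made from the product of Ch25h, was at 2.21 and 1.43 CPM in sham day 1 and at 7.42, 8.69, 7.43 and 6.94 CPM in TBI day 1. It was at 0.393, 0.721, 1.03 and 1.09 CPM in sham day 14 and at 8.96, 9.26, 8.05 and 11.9 CPM in TBI day 14. TBI was above sham in every sample on both days, and the sham day 14 values rest on 6 to 20 counts per sample. Gpr183 rose 4.19-fold at day 1 (log2 fold change 2.07, SE 0.32, edgeR adjusted p = 0.00056) and by 3.53 on the log2 scale at day 14 (SE 0.27, edgeR adjusted p = 5.89e-06), and the difference between the days was −1.47 (SE 0.40, edgeR adjusted p = 0.0565). The sham groups of Gpr183 also differed, with day 1 above day 14 (1.14, SE 0.33, edgeR adjusted p = 0.0271). Hsd3b7, an enzyme that degrades oxysterols, rose at day 1 (0.76, SE 0.20, edgeR adjusted p = 0.0185), from 10.7 and 9.13 CPM to between 13.8 and 21.9 CPM, which overlapped the 12.4 to 17.4 CPM of sham day 14.

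Plin2, a coat protein of lipid droplets, was at 10.8 and 8.99 CPM in sham day 1 and at 54.8, 81.6, 70.2 and 62.5 CPM in TBI day 1. At day 14 it was at 10.7, 8.11, 9.03 and 10.2 CPM in sham and at 22.2, 14.8, 12.9 and 24.5 CPM in TBI. TBI was above sham in all samples, more so at day 1. Plin2 rose by 2.76 on the log2 scale at day 1 (SE 0.28, edgeR adjusted p = 1.43e-05) and by 0.96 at day 14 (SE 0.20, edgeR adjusted p = 0.0094), and the difference of 1.80 (SE 0.32) passed the test (edgeR adjusted p = 0.0081). Soat1, which encodes the enzyme that esterifies cholesterol for lipid droplets, was not called on either day.

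Tspo, a cholesterol-binding protein of the outer mitochondrial membrane and a marker of reactive glia, was at 3.07 and 0.507 CPM in sham day 1 and at 30.7, 25.5, 26.3 and 14.6 CPM in TBI day 1. It was at 3.02, 2.88, 2.87 and 3.37 CPM in sham day 14 and at 6.17, 7.09, 5.37 and 7.29 CPM in TBI day 14. The second sham day 1 sample was far below every other sham sample. Tspo rose by 3.78 on the log2 scale at day 1 (SE 0.50, edgeR adjusted p = 0.000156), and by 2.98 (edgeR) when that sham sample was left out. At day 14 it was at 1.09 (SE 0.35, edgeR adjusted p = 0.119), and the difference between the days was 2.69 (SE 0.58, edgeR adjusted p = 0.0203).

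Among the remaining transport genes at day 1, Osbpl9, a relative of oxysterol-binding protein, was higher (0.71, SE 0.14, edgeR adjusted p = 0.00384), and the carrier Stard4 was lower (−0.72, SE 0.23, edgeR adjusted p = 0.0371). Osbpl1a, another relative, was lower than in sham day 1 (−0.52, SE 0.12, edgeR adjusted p = 0.00654). Its direction turned with the baseline, since all 4 TBI day 1 samples of Osbpl1a lay above sham day 14 (0.17, SE 0.10, edgeR adjusted p = 0.151) and sham day 1 was itself higher than sham day 14 (0.69, SE 0.11, edgeR adjusted p = 0.00238). Tmem97, a regulator of Npc1 named here after its value was seen, was the other gene higher than in sham day 1 (0.68, SE 0.22, edgeR adjusted p = 0.0414). Against sham day 14 the TBI day 1 value of Tmem97 was 0.10 (SE 0.17, edgeR adjusted p = 0.655), with overlapping samples. Sham day 1 of Tmem97 lay below every sham day 14 sample (−0.57, SE 0.22, edgeR adjusted p = 0.0763). Lpl, which hydrolyses lipoprotein triglyceride, fell by 1.40 on the log2 scale at day 1 (SE 0.29, edgeR adjusted p = 0.00387), from 76.7 and 117 CPM to between 22.6 and 54.4 CPM. Rxrg, a partner of the LXR receptors, fell by 1.12 at day 14 (SE 0.27, edgeR adjusted p = 0.0271), from between 14.6 and 16.3 CPM to between 6.18 and 8.35 CPM. Sham day 1 was at 10.9 and 7.19 CPM in Rxrg, below every sham day 14 sample (−0.77, SE 0.34, edgeR adjusted p = 0.123). The call of Stard4 was lost in 10 of 17 alternatives and that of Rxrg in 8 of 19, which for Rxrg included the omission of any 1 day 14 sample but TBI replicate 3. Without sham day 1 replicate 2 the calls of Lpl (−1.06, edgeR adjusted p = 0.087), Osbpl1a (−0.43, edgeR adjusted p = 0.0909) and Hsd3b7 (0.65, edgeR adjusted p = 0.175) were lost.

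**Figure D4:**
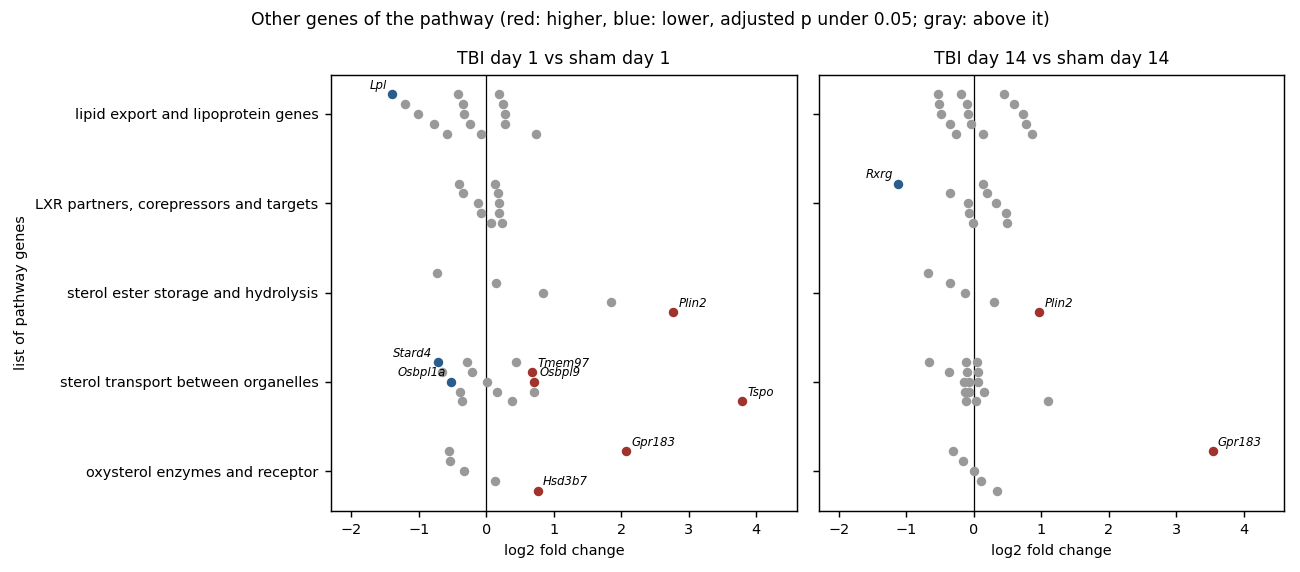
Log2 fold change (horizontal axis) of the 51 other tested pathway genes in TBI against sham at each day, 1 point per gene and 1 row per list, in red or blue and named where the adjusted p was under 0.05. Tspo (3.78) and Plin2 (2.76) lie farthest to the right at day 1 and Gpr183 (3.53) at day 14.

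Across the 14 samples the log2 CPM of Apoe and Npc2 had a Pearson r of 0.95, that of Nr1h3 and Ch25h 0.88, that of Abca1 and Npc2 0.87 and that of Abcg1 and Cyp46a1 0.85. These correlations describe 14 points that share the same libraries and group differences and carry no test. Of all tested genes, those most like Npc2 were Slc2a5 (0.978), Trem2 (0.969) and Tmem176a (0.966), and those most like Apoe were Cd81 (0.963), Npc2 (0.949) and Pla2g7 (0.947). Those most like Abca1 were Hsh2d (0.928), Csf1r (0.925) and Slc2a5 (0.919). By Pearson r the nearest gene was Batf for Nr1h3 (0.962), Apobec1 for Ch25h (0.964), Gzmm for Cyp46a1 (0.965) and Dnajc14 for Abcg1 (0.949). It was Rpl36 for Nr1h2 (0.935), Irf2bpl for Soat1 (0.877) and Adamts4 for Npc1 (0.827). By Spearman rho none of the 3 genes named for Abca1 was among its leading 3, nor were the 3 named for Npc2, Pla2g7 for Apoe or Gzmm for Cyp46a1.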

How the data were processed

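The authors aligned single-end reads of stranded poly(A) libraries to rn5 with STAR 2.4.2a and took counts per UCSC gene with featureCounts 1.5.0; the strand and multi-mapping settings are not given in the sources used here. The deposited counts were whole numbers without normalization. They were fitted with edgeR 4.0.16 in R 4.3.3 (TMM factors, default filter by group, quasi-likelihood, 1 mean per group over 14 samples). Two-sided p-values were adjusted after Benjamini and Hochberg over 12875 genes, with a threshold of 0.05. Log2 CPM used a prior count of 2. In simulated counts for day 1 (12735 genes) edgeR recovered 54 of 100 genes changed 2-fold and 89 of 100 changed 4-fold, with 7 false calls, and DESeq2 (12875 genes) 71 and 93, with 30 false calls.

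The members, gene lists and tests were chosen with earlier results of these data known. Named genes were all members and, per pathway list and day, at most 4 genes past the threshold by smallest p; the 3 genes of highest Pearson r were named as alike. The alternatives were limma-voom (limma 3.58.1), DESeq2 1.42.0, median-of-ratios or upper-quartile factors, total counts only, no filter, a minimum of 10 counts in each sample, the replicate block, a choroid plexus score as covariate, only the groups compared, and each sample left out. The H3K4me3 peak lists were not used, as they carry rn5 coordinates without gene names. Promoter windows came from RefSeq, GRCr8.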

Additional observations from a re-analysis of the deposited data

Results flagged for a closer look

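Npc2 in TBI day 14 replicate 4 stood at a log2 CPM of 8.91, apart from the other 3 samples of its group at 8.35 to 8.44 (Dixon's ratio 0.84, above the critical value for 4 samples). The group's lead over sham day 14 was 1.64 on the log2 scale or more whichever sample was left out. Chance marks about 1 in 20 groups, and 57 groups of 4 samples were tested for the members and named genes.

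The TBI effect differed between the days by a test of the difference itself in 3 genes. The log2 difference, day 1 minus day 14, was −1.88 in Npc2, 1.80 in Plin2 and 2.69 in Tspo (edgeR adjusted p = 0.0122, 0.0081 and 0.0203). All 3 rest on the 2 sham day 1 samples, which lay far apart in Npc2 (142 and 57.8 CPM) and Tspo (3.07 and 0.507 CPM).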

How the results depend on the processing

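Of 1199 comparisons of a member or named gene with its value under an alternative, 1077 kept direction and side of the threshold, 45 lost and 16 gained the call, and 61 changed direction, none of which was past the threshold in either setting. Abca1, Npc2 and Ch25h at day 14 and Ch25h at day 1 kept their calls under all alternatives. The cause of the changes below was not tested.

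The count of members lower at day 1 went from 1 to 0 with upper-quartile factors, total counts only, no filter, a minimum of 10 counts in each sample, the replicate block, only the groups compared, and the choroid plexus-rich samples left out. With the choroid plexus score it was 1, Abcg1 (−0.52, adjusted p = 0.032) in place of Cyp46a1. The members with a lower difference between days rose from 1 to 2 with DESeq2 and with the replicate block. Leaving out 1 sample, members higher at day 1 ranged from 1 to 2, lower at day 1 from 0 to 1, lower in the difference from 1 to 2, and lower in sham day 1 against sham day 14 from 0 to 1 (Npc2, −0.89, adjusted p = 0.0493, without sham day 1 replicate 1).

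No consistent pairing of samples by replicate number was seen. Deviations of same-numbered samples from their group means correlated from −0.35 to 0.24 over 18 pairs, 5 of them over 0.1. Of the samples, 3 were closest to their own number. The 2 sham day 1 samples deviate in mirror image, so their pairs are not separate. Whether samples of the same number shared a batch was not tested. With the replicate block the day 1 value of Cyp46a1 was −0.40 (adjusted p = 0.0753) and the difference of Abcg1 −0.78 (adjusted p = 0.0401).

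At day 1, Apoe turned to 0.0052 with total counts only and to 0.43 with choroid plexus-rich samples left out. Npc2 turned to 0.029 with limma-voom, 0.057 with total counts only, 0.13 with the choroid plexus score and 0.68 with those samples left out, and Npc1 to −0.10 with the score. At day 14, Nr1h2 turned to −0.056 with the score. In the difference between days, Soat1 turned to −0.11 with the replicate block, −0.10 with the score and −0.17 with those samples left out, and Npc1 to 0.011 with total counts only. In sham day 1 against sham day 14, Nr1h2 turned to 0.0023 without a filter and 0.0004 with only those groups, Nr1h3 to −0.027 with the score and −0.27 with those samples left out, and Ch25h to −0.37 with those left out. There Soat1 turned to 0.16 with the block and 0.086 with the score, and Npc1 to −0.0004 with median-of-ratios factors, −0.051 with upper-quartile factors, −0.046 with total counts only, −0.024 with the stricter filter and −0.015 with the block. In TBI day 1 against sham day 14, Abca1 turned to 0.11 with total counts only and 0.0016 with the stricter filter.

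Leaving out 1 sample at a time turned the direction of these, whose values ranged as follows. At day 1, Apoe from −0.57 to 0.44, Nr1h2 from −0.20 to 0.48, Npc1 from −0.021 to 0.19 and Npc2 from −0.60 to 0.69. At day 14, Nr1h2 from −0.016 to 0.13. In the difference between days, Nr1h2 from −0.28 to 0.41, Soat1 from −0.066 to 0.25 and Npc1 from −0.27 to 0.0046. In sham day 1 against sham day 14, Apoe from −0.70 to 0.30, Nr1h2 from −0.38 to 0.30, Nr1h3 from −0.28 to 0.57, Soat1 from −0.12 to 0.12, Npc1 from −0.074 to 0.095, Npc2 from −0.89 to 0.40 and Ch25h from −0.38 to 0.73. In TBI day 1 against sham day 14, Abca1 from −0.067 to 0.075 and Npc1 from −0.015 to 0.19. 

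Total counts only moved the median of all genes by 0.168 at day 1, 0.126 in the difference and 0.118 in TBI day 1 against sham day 14, and called 2051 genes higher and 573 lower at day 1, against 1437 and 1021 with TMM factors. At day 14 DESeq2 called 672 higher and 112 lower, against 524 and 47 by edgeR. With 2 sham day 1 samples, day 1 results rest on few animals, and the lowest counts were those of Gpr183, Tspo and Ch25h in sham.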
